A study of Schmidtea mediterranea with 15 samples.

Results

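Trunk fragments of the planarian flatworm Schmidtea mediterranea after 3 days of regeneration were compared with whole juvenile animals, using 6 of the 15 poly(A) RNA libraries of the series. The comparison was set by the sample labels: 3 libraries of regenerating trunks at day 3 against 3 libraries of whole juveniles, all from the sexual biotype S2F2. The other libraries were trunk fragments at day 0 and regenerating trunks at days 5 and 7, 3 libraries each. No group carried a drug or a genetic change according to the labels, which give neither the age of the juveniles nor the size or maturity of the animals that were cut. Day 3 libraries and juveniles therefore differ in body part, in injury and possibly in maturity at once, and these cannot be told apart. In whole-tissue RNA, fewer cells of a type and less RNA per cell also cannot be told apart. Whether replicates were separate animals or pools is not in the labels, and p-values refer only to the spread among these libraries, part of which may be technical.

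Planarians rebuild missing body parts from dividing adult stem cells called neoblasts, which give rise to a blastema at each cut surface while the old tissue is remodelled. Animals of the sexual biotype are hermaphrodites, and their testes, ovaries, yolk glands and copulatory organs develop only as the animal matures. The files give sequence identifiers without gene names, and no annotation was used here, so no transcript below is assigned a gene, an organ or a function. Each row of the table is called a record, and several records can come from 1 gene.

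The day 3 libraries held between 36859187 and 52422628 counts and the juvenile libraries between 25735815 and 37791352. Of 92053 records, 46736 had enough counts to be tested. On the first principal component of the 6 libraries, which held 76.8% of the variance of log2 CPM (read counts scaled to a common library size), juveniles lay between 101 and 119. Day 3 replicates 1 and 2 lay at -85.5 and -89.0 and replicate 3 farther out at -157. Replicate 3 thus stands apart from its group along the same axis that separates day 3 from juveniles, and results that rest on it are given below with and without it.

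Large differences between day 3 trunks and juveniles were mostly of transcripts that were higher at day 3. By the edgeR quasi-likelihood test at an adjusted p under 0.05, 8741 of the tested records were called (18.7%): 5179 records were higher at day 3 (11.1%) and 3562 were lower (7.62%). Among calls of at least 2-fold the counts were 2745 higher (5.87%) and 678 lower (1.45%). At 4-fold or more they were 2234 higher (4.78%) and 87 lower (0.186%). The 2 directions thus differed in size of change: 26.3% of the higher records were over 16-fold apart, against 0.59% of the lower ones. Records without counts in the lower group were taken at their lower bound. Changes under 1.5-fold made up 52.1% of the lower records and 36.1% of the higher ones. All 3 day 3 libraries lay above all 3 juvenile libraries for 8839 records (18.9%) and below them for 7620 (16.3%).

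The numbers called depended on single libraries and the split of directions on scaling. With TMM scaling 59.2% of the calls were higher at day 3, while upper-quartile scaling gave 3262 higher and 5455 lower, or 37.4% higher. The median log2 fold change of the tested records was -0.176 with that scaling and -0.0158 with TMM, so records with small changes in either direction are read relative to that shift. The total of 8741 calls was 5770 without juvenile replicate 1 and 5036 without juvenile replicate 2. The higher records numbered 3239 and 2821 in these fits. The lower records numbered 2285 without day 3 replicate 1, 2215 without juvenile replicate 2 and 2369 without juvenile replicate 3.

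**Figure D1:**
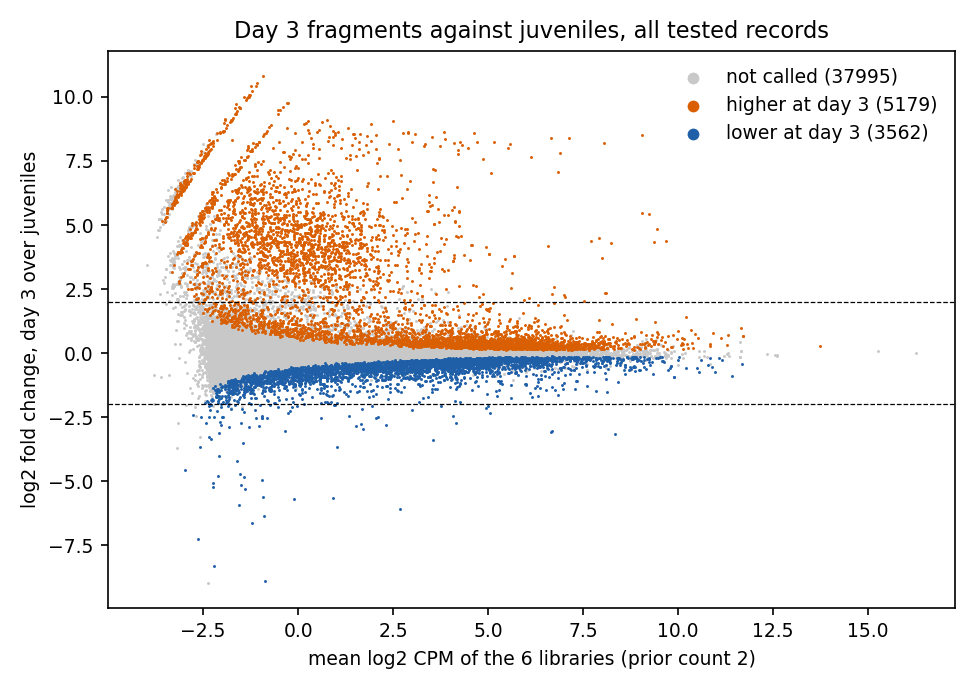
Log2 fold change of day 3 over juveniles (vertical axis) against the mean log2 CPM of the 6 libraries (horizontal axis) for all 46736 tested records; orange points were called higher at day 3, blue points lower, and dashed lines mark 4-fold. The 2234 orange points above the upper line form a cloud with few counterparts among the 87 blue points below the lower line.

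The 4 named records were chosen by the rule that took, in each direction, the smallest adjusted p and the largest difference in mean CPM. GDAG01016573.1 stood at 17.1, 16.1 and 16.4 CPM in the day 3 libraries and at 0.035, 0.0247 and 0.0645 CPM in the juvenile libraries, which held 4 counts of it in all. The groups were far apart and the day 3 libraries were close to one another. The fitted difference on the log2 scale was 8.58 with an SE of 0.22 (edgeR adjusted p = 5.8e-13), and the juvenile level in it rests on those 4 counts. At the other times its mean was 24.8 ± 3.14 CPM at day 0, 11.5 ± 0.837 at day 5 and 4.68 ± 0.744 at day 7 (SD, n = 3), so day 3 was a point on a descending series.

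GDAG01027988.1 had the largest difference in CPM. Its share of all counts was 1.03% ± 0.213 at day 3 and 0.00318% ± 0.000971 among juveniles (SD, n = 3). The day 3 libraries held 12106, 7822 and 11207 CPM and the juveniles 35.9, 19.6 and 31.0 CPM, with no overlap. The fitted log2 difference was 8.49 with an SE of 0.69 (edgeR adjusted p = 1.6e-05), a wider error than for the first record. Within each of the 2 groups the highest library was under 2 times the lowest.

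GDAG01087855.1 was the record lower at day 3 with the smallest adjusted p. It stood at 0.156, 0.0808 and 0.0719 CPM at day 3, or 14 counts in all, and at 6.20, 5.81 and 5.06 CPM in juveniles. Every day 3 library was far under every juvenile library, and the fitted log2 difference was -5.70 with an SE of 0.29 (edgeR adjusted p = 1.8e-09). Day 3 did not differ detectably from day 0 at this depth (0.104 ± 0.079 CPM at day 0, edgeR adjusted p = 0.98), and the means at days 5 and 7 were 0.654 ± 0.08 and 1.39 ± 0.33 CPM (SD, n = 3).

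JX010559.1 was the record lower at day 3 with the largest difference in CPM. It measured 65.7, 109 and 160 CPM at day 3 and 1000.4, 1056.7 and 957 CPM in juveniles, a fitted log2 difference of -3.17 with an SE of 0.37 (edgeR adjusted p = 0.00019). The 3 day 3 libraries were the lowest of all 15. Day 0 fragments held 500 ± 96 CPM, so day 3 was also lower than day 0, with a log2 difference of -2.16 and an SE of 0.35 (edgeR adjusted p = 0.0052), and the mean was 239 ± 51.7 at day 5 and 400 ± 143 at day 7 (SD, n = 3). A further 2 records kept a fixed ratio to it, 0.312 and 0.317 of its counts within 10% in every library. These 3 records may share reads and are not independent observations.

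**Figure D2:**
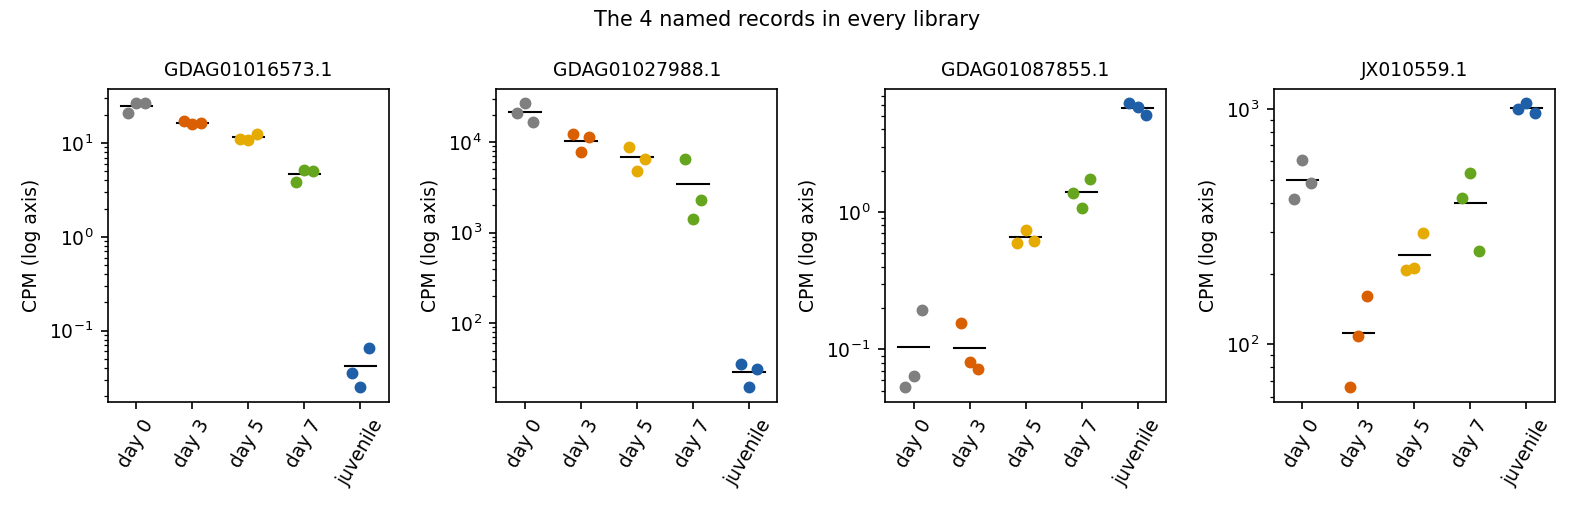
CPM (log axis) of the 4 named records in each of the 15 libraries, with points for libraries and a line for the mean of each group of 3. The first and second records are under 36 CPM in juveniles and fall from day 0 to day 7, the third is near 0.1 CPM until day 3, and the fourth has its lowest values at day 3.

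The 2234 records called at least 4-fold higher at day 3 are termed the day-3-high set, and their values at day 3 and in juveniles follow from that choice. The set took 7.56%, 6.95% and 8.77% of the counts of the day 3 libraries and 0.315%, 0.231% and 0.330% of the juvenile libraries. Its counts were concentrated, with 13.5% of them at day 3 in GDAG01027988.1 and 51.1% in 10 records, so the shares describe mostly those. The median record of the set was 23.7-fold higher by the fitted values. In juveniles 176 of the 2234 had no counts and 359 had 1 to 3 counts, and with the 176 set to their lower bound (3 counts over the 3 juvenile libraries) the median fold was 20.9. For those 176 the bounds ran from at least 3.56-fold to at least 188-fold higher at day 3. In the other direction 2 records without counts at day 3 were called higher in juveniles, by at least 20.7-fold and at least 41.4-fold.

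**Figure D3:**
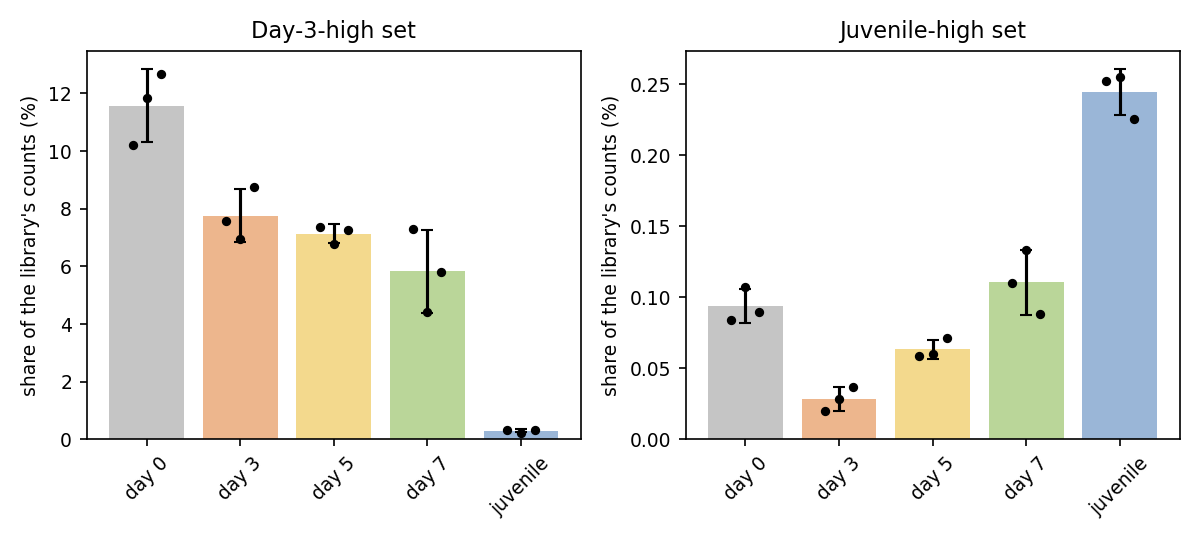
Share of each library's counts (percent, axis from 0) held by the day-3-high set (left) and the juvenile-high set (right); bars are group means, error bars the SD of 3 libraries, points single libraries. The left set holds on average 11.6% at day 0, 7.76% at day 3 and 0.292% in juveniles. The share of the right set, which in juveniles came mostly from 10 records, is lowest at day 3, with 0.0283%.

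Day 3 replicate 3 divided the day-3-high set into groups of records. In 1568 of the 2234 records (70.2%) replicate 3 was at least 2-fold above the mean of replicates 1 and 2 (with 0.05 CPM added), against 6.57% of all tested records. In 489 (21.9%) replicate 3 was within 1.5-fold of that mean, and 177 records lay in neither class. The first class, termed the varying part, had median levels of 1.85, 2.16 and 7.44 CPM in the 3 day 3 libraries and 0.148 to 0.226 CPM in juveniles. The second, termed the even part, had medians of 4.48, 3.93 and 4.05 CPM at day 3 and 0.0701 to 0.0967 CPM in juveniles. These classes were drawn from the same libraries after their values had been seen, and no test is given of them.

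The varying part was also uneven at the other times. Its median was 6.5, 6.78 and 19.5 CPM in the day 0 libraries, 3.00, 4.40 and 5.21 at day 5, and 0.815, 0.20 and 2.10 at day 7. Day 7 replicate 2 lay inside the range of the juveniles. The library numbered 3 had the highest median of its group at days 0, 5 and 7 and in juveniles. At day 3 the choice of this part fixes that order. The labels do not say that a number marks a shared batch. The even part went from 5.98, 6.5 and 6.11 CPM at day 0 to 1.57, 1.11 and 1.34 at day 7. Although it held fewer records, the even part took most of the set's counts at day 3, between 5.73% and 6.49% of a library, while the varying part took 0.587%, 0.691% and 2.46%.

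The calls of the varying part depended on replicate 3 and on each juvenile library. Replicates 1 and 2 were both above all 3 juvenile libraries in 1567 of the 1568 varying records, a value that the choice of the set nearly fixes, and the mean of these 2 replicates was at least 4-fold over the juvenile mean in 1349 (with 0.05 CPM added to each). Without day 3 replicate 3, 599 of the 1568 varying records were called higher (38.2%), with a median log2 fold change of 3.50 in place of 4.48, and 470 of the 489 even records (96.1%). Without juvenile replicate 1, 2 or 3 the varying calls numbered 481, 249 and 592. The even calls numbered 467, 461 and 465. A small spread is part of how the even records were chosen, which favours their calls. For the whole set of 4-fold higher calls, the count was 1242 without day 3 replicate 3, 1136, 866 and 1245 without juvenile replicates 1, 2 and 3, and 1479 when only these 6 libraries were fitted. At 2-fold the count of 2745 was 1670 without day 3 replicate 3 and 1523, 1205 and 1654 without the juvenile replicates.

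A further 620 records were fitted at 4-fold or more above juveniles without passing the test, and 10 below them. In 559 of the 620 the day 3 libraries all lay above the juveniles, as in 18.9% of all tested records. The choice of a 4-fold difference in the same libraries favours this. Their median levels of 0.234, 0.269 and 0.935 CPM in the 3 day 3 libraries followed the order of the varying part.

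**Figure D4:**
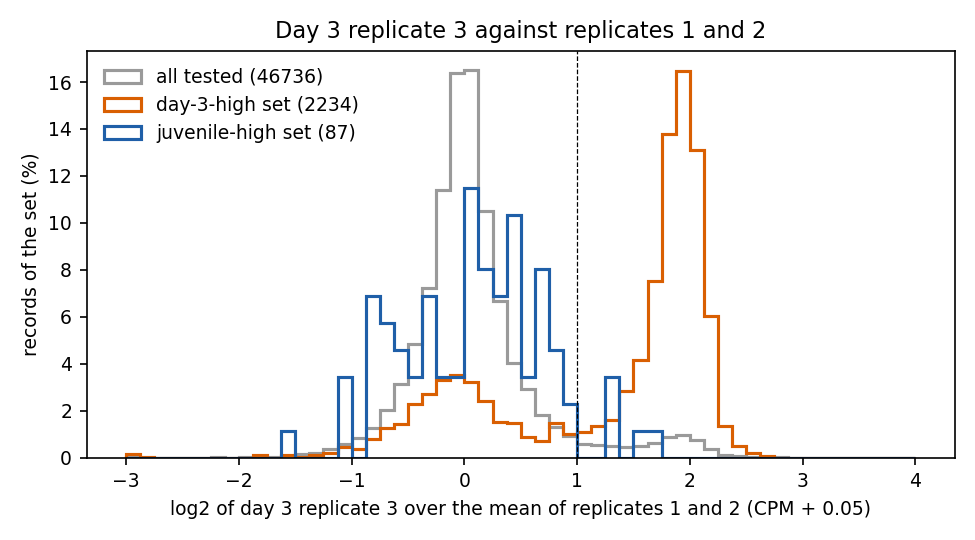
Log2 ratio of day 3 replicate 3 over the mean of replicates 1 and 2 (horizontal axis, 0.05 CPM added) as a percentage of the records of each set (vertical axis); grey is all tested records, orange the day-3-high set and blue the juvenile-high set, and the dashed line marks 2-fold. The orange line has a high peak near a 4-fold ratio, which holds most of the 1568 varying records, and a low one near equality.

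By level, most of the day-3-high set stood higher still in day 0 fragments, but few of these differences passed the test. The fitted level of 1804 of the 2234 records (80.8%) was at least 2-fold lower at day 3 than at day 0, that of 340 was within 2-fold and that of 90 (4.03%) at least 2-fold higher. Against day 0, edgeR called 203 of the 2234 (9.09%) lower in day 3 trunks and 70 (3.13%) higher, against 5.48% and 3.02% of all records. Without day 3 replicate 3 the levels gave 1837, 305 and 92. In that fit 489 of the 2234 were called lower, where 7.62% of all records were. The 74 called higher have no share over all records beside them and are not read as a trait of the set. Day 0 had the highest group mean for 2094 records. Over all tested records 7.85% were at least 2-fold lower and 2.44% at least 2-fold higher at day 3 than at day 0. The share of counts held by these 1804 records was 9.62% ± 1.27 at day 0, 4.25% ± 1.28 at day 3 and 0.0889% ± 0.0177 among juveniles (SD, n = 3). The day 3 libraries held 4.06%, 3.08% and 5.62%, the last being replicate 3, all under the lowest day 0 library at 8.29%. Of them 1536 belonged to the varying part, 189 to the even part and 79 to neither.

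The set held 90 records that were higher at day 3 than in both reference groups, against day 0 by level. Their mean share rose through day 7, while their median record fell after day 3. They held 0.685% ± 0.0536 of a library at day 0 and 1.98% ± 0.223 at day 3, with day 3 libraries between 1.79% and 2.23% and no overlap with day 0. Their juvenile share was 0.121% ± 0.016. It was 2.2% ± 0.282 at day 5 and 2.69% ± 0.477 at day 7, while the median single record stood at 5.24 CPM at day 3 and 3.23 CPM at day 7, and 10 of the 90 held 87.1% of their counts at day 3 and 92.6% at day 7. None of these 90 was in the varying part, and 66 were in the even part. These groups were formed from the day 0 and day 3 levels, so the values are descriptions without a test.

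The step from day 3 to day 5 depended on replicate 3. The median fold of day 5 over day 3 was 1.03 with all libraries, with 2168 of 2234 records within 2-fold, and 1.93 without day 3 replicate 3, with 1152 within 2-fold and 1016 at least 2-fold higher at day 5. In the varying part it was 1.09 with replicate 3 and 2.11 without it, and in the even part 0.729 and 0.713. The edgeR test of this step called 0 of the 2234 higher and 1 lower in either fit, where 0.0171% and 0.00214% of all records were called with all libraries. From day 5 to day 7 the median fold was 0.28, with 169 records (7.56%) called lower against 0.52% of all records. At day 7 the median record was 6.82-fold over juveniles, against 23.7-fold at day 3, 25.1-fold at day 5 and 64.9-fold at day 0. Against juveniles, edgeR called 504 of the 2234 (22.6%) higher in day 7 fragments, 2156 in those of day 5 and 2181 in those of day 0, beside 5.21%, 11.9% and 19% of all records. The comparisons with day 3 and with juveniles share libraries with the choice of the set. Day 7 against day 0 shares neither, apart from the spread estimated over all libraries: 2071 of the 2234 records (92.7%) were called lower at day 7 by edgeR and 77 (3.45%) higher, where 16% and 7.87% of all tested records were. That number fell to 1104 (49.4%) without day 0 replicate 3 and to 917 (41%) without day 7 replicate 1, and a fit of only these 2 groups left 549 (24.6%). The matching values for all records were 9.06%, 8.35% and 7.22%.

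**Figure D5:**
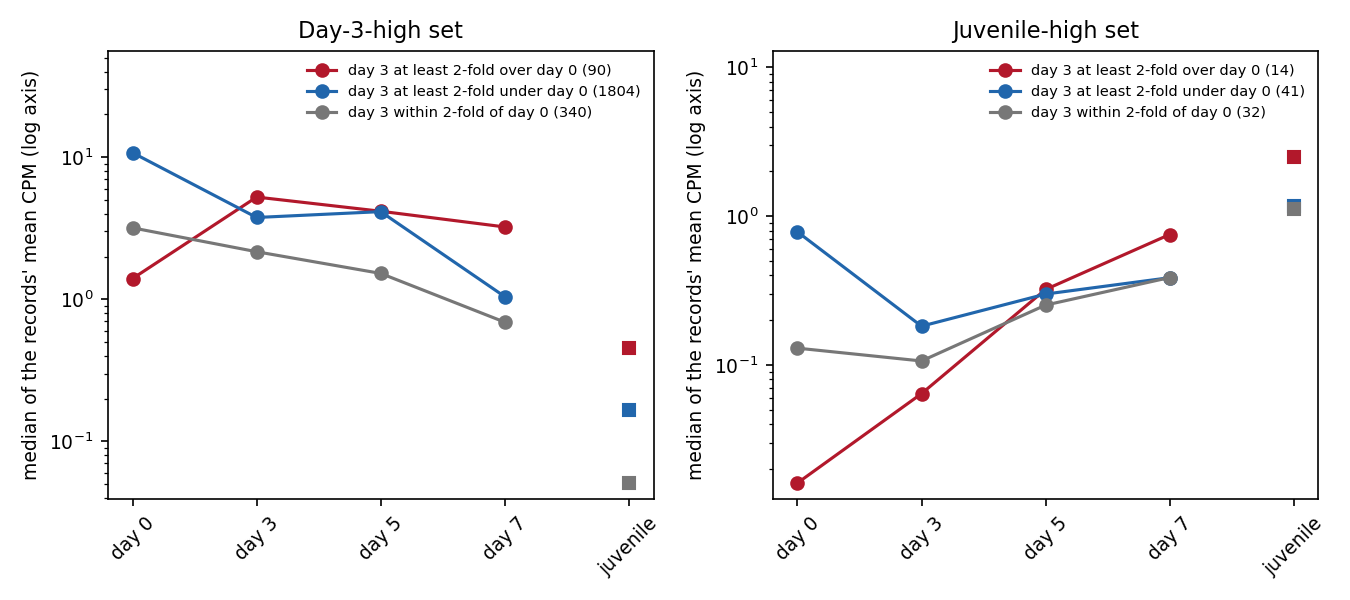
Median over records of the group mean CPM (log axis) in the day-3-high set (left) and the juvenile-high set (right), divided by the fitted level at day 3 against day 0; circles joined by lines are the 4 times of the trunk fragments and squares the juveniles. On the left the blue class of 1804 records starts at 10.8 CPM at day 0 and is at 3.77 CPM at day 3, and on the right the blue class of 41 goes from 0.784 to 0.182 CPM.

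The 87 records called at least 4-fold lower at day 3 are termed the juvenile-high set. They held 0.0197%, 0.0286% and 0.0367% of the day 3 libraries and 0.252%, 0.255% and 0.226% of the juvenile libraries. In juveniles 45.1% of these counts came from JX010559.1 and 89.9% from 10 records, so the shares describe mostly those. The 2 records that kept a fixed ratio to JX010559.1 may share its reads. In the median record replicate 3 of day 3 did not stand apart here, at 1.06 times the mean of replicates 1 and 2. Its share of counts was the highest of the 3 day 3 libraries, as was its level of JX010559.1. Replicate 3 was within 1.5-fold of that mean in 58.6% of the 87 records, against 82.0% of all tested records. It was at least 2-fold over that mean in 5.75%, against 6.57%. The number of these calls was 89 to 124 when any 1 library was left out, 137 without the filter on low counts and 118 in a fit that dropped 3 libraries at once (replicate 3 of day 0, replicate 3 of day 3, replicate 2 of day 7).

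In the juvenile-high set day 3 was the lowest of the 5 groups for 38 records and day 0 for 34, with the choice of records that are low at day 3 favouring the former. By level 41 of the 87 were at least 2-fold lower at day 3 than at day 0. These went from a median of 0.784 CPM at day 0 to 0.182 at day 3, 0.299 at day 5, 0.386 at day 7 and 1.17 in juveniles. Another 32 were within 2-fold of day 0, with medians of 0.130 CPM at day 0 and 0.106 at day 3. The remaining 14 were at least 2-fold above day 0 by level, at 0.0161 CPM at day 0, 0.0641 at day 3, 0.321 at day 5, 0.752 at day 7 and 2.51 in juveniles. Their day 0 level was near the limit of detection, and 8 of the 87 had no counts at day 0. Against day 0, edgeR called 2 of the 87 (2.3%) higher at day 3 and 25 (28.7%) lower, beside 3.02% and 5.48% of all records. Choosing records that are low at day 3 favours the lower calls. In the edgeR test of day 7 against day 0, 20 of the first class were lower and 0 higher, and 14 and 11 of the other classes were higher and 0 lower, a comparison that uses neither day 3 nor juvenile libraries. Over the 87 records 25 were higher (28.7%) and 20 lower (23.0%), against 7.87% and 16% of all tested records. The classes were themselves formed with the day 0 libraries, which favours these directions.

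Records whose identifiers lie outside the main transcriptome assembly form a group that does not depend on the values. Of 513 such records tested, 88 (17.2%) were higher and 103 (20.1%) lower at day 3, against 11.1% and 7.62% of all records. They also had more counts: 52.6% had a mean of at least 10 CPM over the 6 libraries, against 20.7% of assembly records, and calls were more frequent at such levels. Among all records between 10 and 100 CPM, 21.3% were called higher and 15% lower, and under 1 CPM 4.46% and 2.78%. The part of this in the difference was not tested. The 175 records whose identifiers begin with JX had 42 higher (24%) and 29 lower (16.6%), and the other 338 had 46 higher (13.6%) and 74 lower (21.9%). The median log2 fold change of the 513 was -0.0313, beside -0.0158 for all records. Of the 513, 25 were called at least 2-fold higher and 15 at least 2-fold lower, against 5.87% and 1.45% of all records. Without juvenile replicate 2 the number higher was 57, where the higher calls over all records went from 5179 to 2821. Without the filter on low counts the numbers were 99 higher and 64 lower. Over all records that fit gave 5578 higher in place of 5179 and 2075 lower in place of 3562.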

How the data were processed

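The deposited values are raw read counts per sequence record in 15 libraries, judged from whole numbers with differing totals. Per the labels, extraction was by TRIzol and library preparation by a TruSeq RNA kit that keeps no strand information, so antisense transcripts that overlap are counted together. The authors aligned reads with Bowtie2, per the submitters' processing notes. Not given in the sources used here were its version, the counter, the target sequences, any filter and the treatment of reads that match several records. Of the 92053 records, 531 had identifiers outside the main assembly, and 1298 rows were identical to an earlier row.

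Records were filtered with filterByExpr (minimum count 10, minimum total 15, on the 5 groups), which kept at least 99.6% of each library's counts. Library sizes were scaled by TMM (factors 0.893 to 1.12). The test was that of edgeR 4.0.16 (R 4.3.3): 1 robust quasi-likelihood fit of all 15 libraries, group as the only term, 10 residual degrees of freedom, with p-values adjusted by Benjamini-Hochberg over the 46736 records. Standard errors were derived from the F statistic, fold changes of sets are fitted values, and log2 CPM used a prior count of 2. Bounds and floors cover counting error only.

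Groups came from the sample titles. Named records were, in each direction, the call with the smallest adjusted p and the call of at least 2-fold with the largest difference in mean CPM. Members, sets and tests were chosen with earlier results of these data known. The classes by replicate 3 and by day 0 level, the tests of day 7 against day 0, the levels without day 3 replicate 3 and the joint removal of 3 libraries were added after the data were seen. Alternatives were other scalings, DESeq2 1.42.0, no filter, other libraries in the fit, a replicate block, thinned counts and identical rows counted once. Planned marker lists could not be matched to the identifiers and are not reported.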

Additional observations from a re-analysis of the deposited data

How the results depend on the processing

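Every one of the 4 named records kept its direction and its call in all 23 alternatives run on it. Their choice by small p-values or large differences in the same libraries favours this. No record called in both the main fit and an alternative changed direction, and the alternatives reuse libraries of the main fit. The count of 8741 calls was 4151 at an adjusted p under 0.01 and 761 in a test against a 2-fold change (663 higher, 98 lower). Leaving out 1 library gave 5036 to 9813 calls, with 2821 to 6011 higher and 2215 to 3802 lower. At 2-fold it gave 1732 to 3929 calls, 1205 to 3192 of them higher and 507 to 737 lower, and at 4-fold 955 to 2652 calls, 866 to 2550 higher and 89 to 124 lower. Upper-quartile scaling gave 3262 higher and 5455 lower, and 1204 lower at 2-fold. Without the low-count filter 2075 were lower (72.9% of calls were then higher), 137 of the 4-fold calls were lower, and 64 records with other identifiers were lower. A fit of the 6 libraries alone called 1479 records at least 4-fold higher. Leaving out 1 library moved the day-3-high share to 9.56% to 12.2% at day 0 and 6.94% to 8.18% at day 3, and the juvenile-high share to 0.0244% to 0.0296% at day 3 and 0.228% to 0.256% in juveniles. Leaving out 1 day 3 or juvenile library gave 57 to 85 higher and 69 to 88 lower records with other identifiers. Over all records these fits gave 2821 to 4982 higher and 2215 to 2773 lower. Leaving out 1 day 0 or day 7 library gave 917 to 2055 day-3-high records lower at day 7 than at day 0, with 549 when those 2 groups were fitted alone. With the replicate block 9743 records were called, and 8034 with the block in the 6 libraries alone, against 6651 there without it. Same-numbered day 3 and juvenile libraries had correlations of 0.0314, 0.0794 and 0.115 in their deviations. Day 3 replicates 2 and 3 correlated best with the juvenile library of their own number, and replicate 1 with juvenile replicate 2 (0.043). The labels state no pairing, so the main fit had no replicate term. Whether the numbers mark a shared batch was not tested. DESeq2 called 9126 records, thinning to the smallest library left 7562, and a fit without 3 libraries at once (replicate 3 of day 0, replicate 3 of day 3, replicate 2 of day 7) gave 9177. The causes of these changes were not tested; settings with fewer libraries have less power by construction. Most day-3-high records had under 1 CPM in juveniles, which limits how closely their folds can be given.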

Other observations

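Small changes involved much of the RNA of both groups. The 2434 records called higher at day 3 by less than 2-fold held 23.0% ± 0.269 of a library at day 3 and 19.2% ± 0.255 in juveniles, and 21.6% ± 0.805, 22.6% ± 0.314 and 22.5% ± 0.289 at days 0, 5 and 7 (SD, n = 3). The 2884 called lower by less than 2-fold held 12.2% ± 0.322 at day 3 and 17.6% ± 0.235 in juveniles, with 11.9% ± 0.111, 12.8% ± 0.166 and 13.3% ± 0.372 at days 0, 5 and 7. Day 3 replicate 3 did not stand apart in either group of records: its median ratio to replicates 1 and 2 was 0.97 in the first and 1.01 in the second. These records were chosen by the same libraries. Upper-quartile scaling altered the split of all calls by direction, and it also raised the lower calls of at least 2-fold from 678 to 1204.

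Calls became more frequent with the number of counts, yet the large differences did not. Among records over 100 CPM, 31.4% were called higher and 20% lower at day 3, but only 43 and 3 of 1445 differed by 4-fold or more, while 1260 of the 13588 records between 1 and 10 CPM were at least 4-fold higher.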
